A study of Homo sapiens with 14 samples.

Results

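HSF1-only peaks of heated cycling cells are the peaks of 1 list, HSF1 ChIP-seq of unsynchronised K562 cells held at 42 °C for 30 min, that touch by 1 bp no peak of 3 others: HSF2 in heated cycling cells, non-specific IgG in heated cycling cells, and HSF1 in heated mitotic cells. Of the 6447 peaks of that list, 3719 met the rule (57.7%, 95% Wilson interval 56.5 to 58.9%), with no minimum of fold or p, among 117699 peaks in the 12 lists of the series. Peaks are intervals where the ChIP library had more aligned reads (tags) than the input, chromatin sequenced without an antibody. Presence in the HSF1 list and absence from the other 3 therefore chose the members, and none of their values is tested here.

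K562 is a human erythroleukemia line, and all libraries came from this 1 line. The heated cycling groups used here are HSF1, HSF2 and IgG, and the heated mitotic groups, of cells arrested in mitosis, are HSF1, HSF2 and IgG. Non-treated counterparts, kept at 37 °C, exist for each antibody in cycling and in mitotic cells. Each group has 1 library made from 10 pooled immunoprecipitations, so that no value has a replicate, and separate immunoprecipitations of 1 condition were not compared. The lists were called against 2 inputs, 1 of cycling and 1 of mitotic cells, both labelled as heat-treated, so the lists of cycling cells share a control also where the ChIP cells were not heated. For that input the header of the non-treated cycling IgG list counts 36542527 kept tags, and the other 5 count 34815679. Intervals below cover counting error alone.

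HSF1 is the transcription factor that drives heat shock gene expression. On heat it assembles into trimers, which bind heat shock elements, repeats of a short motif in alternating orientation. HSF2 is a related factor that binds the same elements and can form mixed trimers with HSF1. IgG recognises no chromatin protein, and its peaks mark places where chromatin is recovered without a specific target, among them open chromatin and repeated or extra copies of sequence. Motifs, sequences and genes at the peaks were not analysed here, and regions are given by their hg19 positions.

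The depth of the libraries sets what each list can hold. Tags kept after the caller's removal of duplicates numbered 16735990 for heated cycling HSF1, 19476014 for heated cycling HSF2, 14567365 for heated cycling IgG and 7385467 for heated mitotic HSF1, within a range of 2066373 to 28676943 over the 12 libraries. The weakest peak in the mitotic HSF1 list held 9 tags, which is 1.22 tags per 1000000 kept tags (CPM). Of the 3719 members, 3042 (81.8%) had a lower CPM than that in their own list, so absence from the mitotic list says little of them. A region below that level in its own list can still touch a mitotic peak. The chrX region just outside the rule, given below, had 0.956 CPM in heated cycling HSF1. The mitotic HSF1 peak that it overlaps by 17 bp had 1.22 CPM, and the reason was not tested. In the IgG list of heated cycling cells the weakest peak had 0.824 CPM, and 1140 members (30.7%) lay below it. In the HSF2 list of heated cycling cells the weakest had 0.719 CPM, and 0 members lay below it.

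Most of the members were small and weak peaks. They held a median of 15 tags, with quartiles of 13 and 19, where 13 was the lowest count in the list. At that minimum stood 1140 members (30.7%), against 19.8% of the list, and 2086 (56.1%) held 15 tags or fewer, against 37.2%. Scaled to depth, the median was 0.896 CPM, with a range of 0.777 to 72.7 CPM. Their median width was 613 bp (quartiles 581 and 734, range 366 to 5995), and together they covered 2606 kb. The 3719 members held 70456 of the 233908 tags in all peaks of the list (30.1%) and 0.421% of all kept tags of the library.

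The 1381 HSF1 peaks that touched an HSF2 peak of heated cycling cells, but neither an IgG peak nor a mitotic HSF1 peak, give the closest contrast within the same library. The members' median of 15 tags stands beside 25 tags in these shared peaks, their 0.896 CPM beside 1.49 CPM, and their 613 bp beside 830 bp. The IgG-only peaks give a second contrast. These are the 2812 IgG peaks of heated cycling cells that touch no HSF1 or HSF2 peak of heated cycling cells and no IgG peak of heated mitotic cells. They had medians of 13 tags, 0.892 CPM and 595 bp. In tags, CPM and width the typical HSF1-only peak was thus nearer to the IgG-only peaks than to the shared HSF1 peaks. Peaks of the heated cycling HSF2 list chosen in a like way, defined below, had medians of 15 tags, 0.770 CPM and 603 bp. Those of the non-treated cycling HSF1 list had 13 tags, 0.900 CPM and 594 bp. Small size was thus not particular to the IgG-only peaks.

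**Figure D1:**
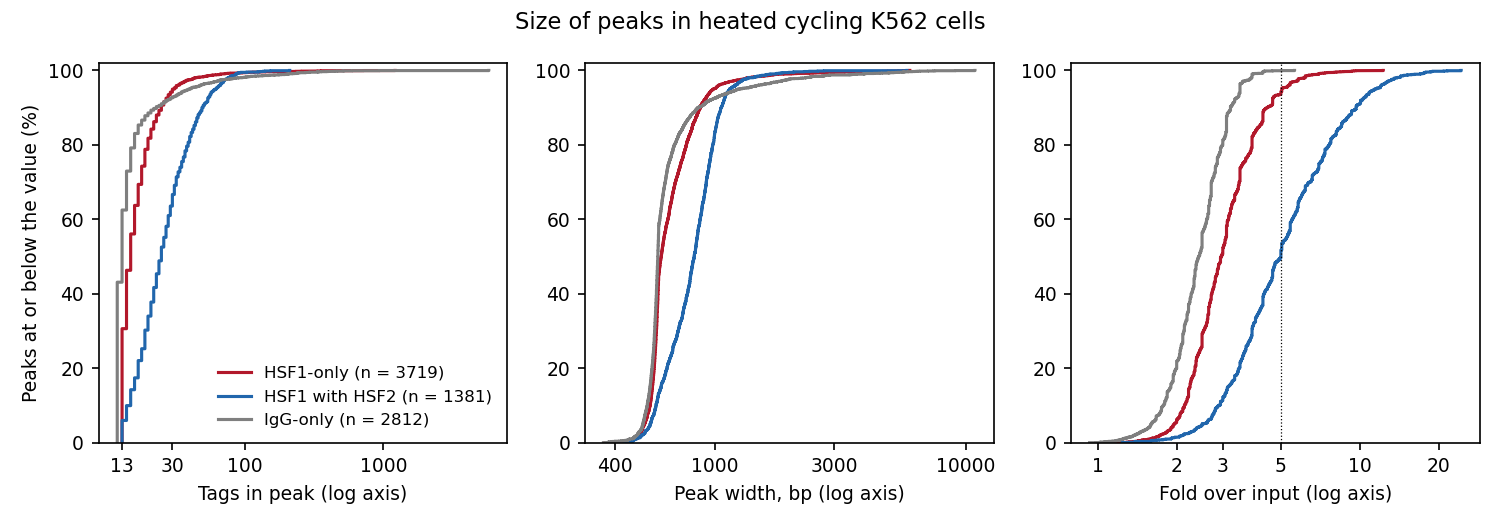
Cumulative share of peaks (vertical axis, percent) by tags in the peak, peak width in bp and deposited fold over input, each on a log axis, for 3719 HSF1-only peaks, 1381 HSF1 peaks shared with HSF2 and 2812 IgG-only peaks of heated cycling cells. The HSF1-only curve runs beside the IgG-only curve for tags and width, and lies between the others for fold, where 6.45%, 50.3% and 0.0711% of the 3 sets reached 5 (dotted line).

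The fold over input separated the sets more than size did. This deposited fold is the ratio of ChIP tags to the tags predicted from the input at the peak's summit. Its median was 2.96 in the members (quartiles 2.46 and 3.57, range 1.17 to 12.31), against 5.00 in the shared peaks and 2.43 in the IgG-only peaks. A fold of at least 3 was reached by 1833 members (49.3%), against 56.6% of the whole HSF1 list. A fold of at least 5 was reached by 240 members (6.45%, 5.71 to 7.29%), against 19.4% of the list, 695 of the 1381 shared peaks (50.3%) and 2 of the 2812 IgG-only peaks (0.0711%, 0.0195 to 0.259%). A fold of at least 8 was reached by 19 members (0.511%), against 7.27% of the list, 243 shared peaks and 0 IgG-only peaks, for which the upper Wilson bound is 0.136%. A fold of at least 10 was reached by 2 members, against 4.42% of the list.

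The deposited fold may also move with depth, since the ChIP libraries differ in kept tags while the cycling lists share an input. This was not tested. With 2066373 kept tags, non-treated mitotic IgG had a fold below 1 at 89.9% of its peaks. With 6164898, non-treated mitotic HSF1 had it at 48.5%, and heated cycling HSF1 at 0%. Heated mitotic HSF1, with 7385467, had it at 29.9%. These mitotic lists kept at most 1 tag per position, where heated cycling HSF1 kept 2, and were called against the mitotic input. Depth and this limit cannot be told apart by them. The fold is thus not read as enrichment at equal depth. Scaled to the depth of the heated cycling HSF1 library, the share at a fold of 5 or more remained 6.45% for the members and was 0.142% (4 peaks) for the IgG-only peaks. At a fold of 3 or more the scaled share was 49.3% for the members and 39.8% for the IgG-only peaks, where the deposited fold gives 20.1% for the IgG-only peaks. The gap between the sets at a fold of 3 was therefore narrower after scaling. At a fold of 5 the difference remained on both scales. The 2 IgG-only peaks with a fold of at least 5 were at chr15:28833955-28834574, with 18 tags and a fold of 5.64, and at chr17:45586375-45587144, with 17 tags and a fold of 5.04.

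Peaks found with 1 antibody alone were also taken from 2 further lists, in a comparison chosen after the values were seen. HSF2-only peaks, 1926 peaks of the heated cycling HSF2 list that touch no HSF1 or IgG peak of heated cycling cells and no heated mitotic HSF2 peak, reached a fold of 5 in 67 cases (3.48%, scaled 1.04%). Non-treated HSF1-only peaks, 3358 peaks chosen by the same rule with every list exchanged for its non-treated counterpart, reached it in 29 cases (0.864%, scaled 1.61%). In the whole lists the share was 21.1% for heated HSF2, 0.411% for heated IgG and 0.996% for non-treated HSF1 of cycling cells. The highest fold was 12.31 among the heated HSF1-only peaks, 8.14 among the HSF2-only peaks, 5.64 among the IgG-only peaks and 11.07 among the non-treated HSF1-only peaks. Scaled to depth, the last was 12.8, above the 12.31 of the heated set. The heated HSF1-only set thus had the highest share at a fold of 5 or more of these 4 sets, on both scales. Peaks with a score of at least 100 were taken apart after the values were seen. There the deposited fold reached 5 in 31.0% of the HSF1-only and 37.5% of the 120 HSF2-only peaks, so the order turned. Scaled to depth, 20 HSF2-only peaks of any score reached a fold of 5, so on that scale the order did not turn.

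The caller's own statistics did not part the members from the list in the same way at every threshold. A false discovery rate of at most 5%, estimated by the caller from exchanging ChIP and input, was met by all 3719 members, against 100.0% of the list, so it removes nothing there. It was met by all 1926 HSF2-only peaks too, but by 69.3% of the IgG-only and 45.6% of the non-treated HSF1-only peaks, and it is estimated within each list. The score, which is minus 10 times log10 of the p-value, had a median of 75.6 in the members and 155 in the shared peaks. Below 60, near the members' lower limit of 50.01, lay 768 members (20.7%), against 15.9% of the list. A score of at least 100 was reached by 761 members (20.5%), against 38.4% of the list, 72.5% of the shared peaks, 6.23% of the HSF2-only peaks, 13.4% of the IgG-only peaks and 14.7% of the non-treated HSF1-only peaks. By the score, as by the median fold, the members were closer to the IgG-only peaks than to the shared peaks. The HSF2-only peaks had a median score of 64.9 and a median deposited fold of 3.12.

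Tags and fold ran apart at the upper end. Of the 65 members with at least 50 tags, 46 had a fold below 2 and 2 a fold of at least 5, with a median fold of 1.67 and a median width of 2057 bp. Among the 138 shared peaks with at least 50 tags, 7 had a fold below 2 and 124 a fold of at least 5, with a median of 10.1. With at least 100 tags there were 23 members, of which 18 had a fold below 2 and 0 reached 5. An HSF1-only peak with many tags thus mostly had a low ratio to the input, and a shared peak with many tags mostly a high one. These counts were not made for the whole list, so they show no trait particular to the members. The 753 peaks of the list that touch an IgG peak of heated cycling cells had medians of 48 tags and a fold of 2.32.

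**Figure D2:**
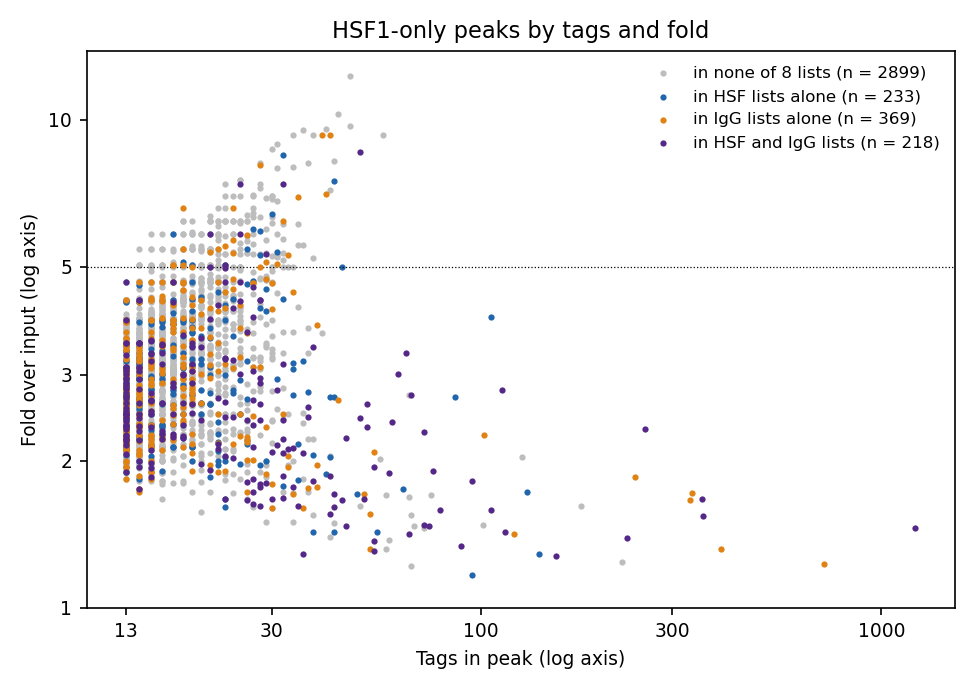
Each point is 1 of the 3719 HSF1-only peaks, by its tags and its deposited fold over input (both axes log), coloured by whether it touches a peak in the 8 remaining lists: none (2899), HSF lists alone (233), IgG lists alone (369) or both (218). Points above 100 tags lie below a fold of 5 (dotted line), and the points above a fold of 8 hold 28 to 57 tags.

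The members with the highest fold were of moderate size. The highest was chr11:20487382-20488258, with 47 tags, 2.81 CPM (Poisson interval 2.06 to 3.73) and a fold of 12.31. Next was chr16:28874476-28875354, with 44 tags, 2.63 CPM and a fold of 10.28. After it, chr2:119564194-119565186, had 47 tags and a fold of 9.69. None of these 3 had a peak in any other list of the series, and their nearest HSF2 peak of heated cycling cells was 81115 bp away or more.

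Several of the following regions lay close to a peak of the rule's lists without touching it. The region chr1:234733442-234734253 had 41 tags and a fold of 9.59, with a heated HSF2 peak 1604 bp and a heated mitotic HSF1 peak 1440 bp away. At chr12:125401384-125402230 there were 57 tags, the most among the 10 members of highest fold, and a fold of 9.32, with an HSF2 peak 866 bp away. The region chr19:54693293-54694127 had 34 tags and a fold of 9.31, with an HSF2 peak 561 bp away. The region chr22:18257090-18258000, with 36 tags and a fold of 9.51, had its nearest HSF2 peak 3797 bp away, and chr4:57396241-57397012, with 38 tags and a fold of 9.31, had it 755862 bp away. Positions near an HSF2 peak and positions far from one were thus both found among the strongest members.

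The remaining 2 of the 10 touched an IgG peak of heated mitotic cells, a list the rule did not use. At chr8:143915457-143916409 the HSF1 peak had 40 tags, 2.39 CPM and a fold of 9.31, and the mitotic IgG peak 21 tags, 1.17 CPM and a fold of 4.58. At chr19:1150671-1151627 the HSF1 peak had 42 tags, 2.51 CPM and a fold of 9.31, and the mitotic IgG peak 13 tags, 0.723 CPM and a fold of 3.17. At both, the heated cycling HSF1 peak had the higher CPM, with each peak counted within the bounds called in its own library. Over all 19 members with a fold of at least 8, the median was 38 tags (range 28 to 57) and 877 bp. Of the 19, 14 (73.7%) had no peak in any remaining list, 4 (21.1%) had an IgG peak and 2 (10.5%) an HSF peak. In the whole list at that fold these shares were 53.5%, 21.1% and 37.1%.

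The members with the most tags looked different. The largest, chr17:25262950-25268484, was 5535 bp wide and held 1216 tags, 72.7 CPM, at a fold of 1.46. It touched peaks in 5 remaining lists, with 82.7 CPM in non-treated cycling HSF1, 72.3 CPM in non-treated cycling HSF2, 95.7 CPM in non-treated cycling IgG, 95.7 CPM in non-treated mitotic HSF1 and 84.0 CPM in non-treated mitotic HSF2. The 6 peaks called there thus held between 72.3 and 95.7 CPM, each within its own bounds, and heated HSF1 was not the highest. The next by tags were chr1:224199110-224204758 with 718 tags and a fold of 1.23, chr1:723707-727527 with 398 tags and a fold of 1.32, chr21:9934476-9939885 with 358 tags and a fold of 1.54, and chrY:13828666-13834431 with 357 tags and a fold of 1.67. Each of these 5 touched an IgG peak of another condition.

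Widths of 2000 bp or more were found in 35 members (0.941%), against 4.51% of the list. These 35 had medians of 115 tags and a fold of 1.48, and 22 touched an IgG peak, 19 an HSF peak and 9 no peak in the remaining lists. Recurrence was not counted for the wide peaks of the whole list, so these counts show no trait particular to the members.

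Recurrence was read in the 8 lists that the rule did not use: 5 HSF lists (HSF2 of heated mitotic cells and 4 non-treated lists) and 3 IgG lists. These differ in length. The IgG list of heated mitotic cells alone has 41184 peaks over 30.9 Mb, the 5 HSF lists together 38263 peaks over 33.2 Mb, and the 3 IgG lists together 59315 peaks over 44.0 Mb. A longer list is touched more often by any set of intervals, and shares over all members are therefore given with the share of the whole HSF1 list. The same depth limit holds in these lists: 98.2% of the members had a lower CPM than the weakest peak of non-treated mitotic IgG, 84.2% than that of non-treated mitotic HSF1, and 30.7% than that of non-treated cycling HSF1, non-treated cycling IgG or non-treated mitotic HSF2.

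Most members did not recur. None of the 8 lists had a peak at 2899 of the 3719 members (78.0%, 76.6 to 79.3%), against 64.8% of the list. At least 1 of the 5 HSF lists had a peak at 451 members (12.1%, 11.1 to 13.2%), against 25.9% of the list, and 2 or more had one at 99 (2.66%), against 13.6%. At least 1 of the 3 IgG lists had a peak at 587 members (15.8%, 14.6 to 17%), against 26.2% of the list. By kind, 233 members recurred in HSF lists alone (6.27%, against 8.97% of the list) and 369 in IgG lists alone (9.92%, against 9.28%). Both kinds of list had a peak at 218 members (5.86%, against 16.95% of the list). The share in IgG lists alone was thus close to that of the whole list. Of the 451 members that recurred in an HSF list, 218 therefore also had an IgG peak. Of the shared peaks 16.7% (14.8 to 18.7%) had a peak in an HSF list, 13.2% (11.5 to 15.1%) in an IgG list and 74.9% in none. In HSF lists alone recurred 6.27% of the members and 11.9% of the shared peaks. At 1 bp of overlap, members thus met IgG lists more often than HSF lists, and shared peaks HSF lists more often than IgG lists. The IgG lists cover 44.0 Mb and the HSF lists 33.2 Mb, and the shares are not corrected for this. The order in the members is therefore not read as a lean towards IgG.

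List by list, members met the HSF1 list of non-treated cycling cells in 122 cases (3.28%, against 11.7% of the list), HSF2 of non-treated cycling cells in 33 (0.887%, against 5.12%) and IgG of non-treated cycling cells in 191 (5.14%, against 11.7%). They met HSF1 of non-treated mitotic cells in 61 cases (1.64%, against 9.96%), HSF2 of non-treated mitotic cells in 219 (5.89%, against 15.6%) and IgG of non-treated mitotic cells in 26 (0.699%, against 5.27%). They met HSF2 of heated mitotic cells in 152 cases (4.09%, against 12.4%) and IgG of heated mitotic cells in 449 (12.1%, against 21.0%). Every share lay below that of the whole list, which also holds the peaks that the rule removed. In HSF1 of non-treated cycling cells, the same antibody and cell state without heat, the shared peaks had a peak in 3.40% and the IgG-only peaks in 6.12%. The members' 3.28% was thus not above the IgG-only share there. The 2 rules differ, however: members exclude heated mitotic HSF1 peaks, and IgG-only peaks exclude heated mitotic IgG peaks. Of the IgG-only peaks, 3.17% touched a heated mitotic HSF1 peak.

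The distance between summits gives a finer view of these overlaps. Members and their partners in non-treated cycling HSF1 had a median summit distance of 135 bp, and 50 of 122 (41.0%) lay within 100 bp, where the shared peaks had 40.4% and the IgG-only peaks 36.6%. In the other 7 lists the median was 227 to 578 bp. In heated mitotic IgG, the list met most often, the median was 319 bp and 82 of 449 (18.3%) lay within 100 bp. In heated mitotic HSF2 the members had a median of 286 bp with 40 of 152 (26.3%) within 100 bp, whereas the shared peaks had 101 bp with 59 of 118 (50.0%) within 100 bp.

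**Figure D3:**
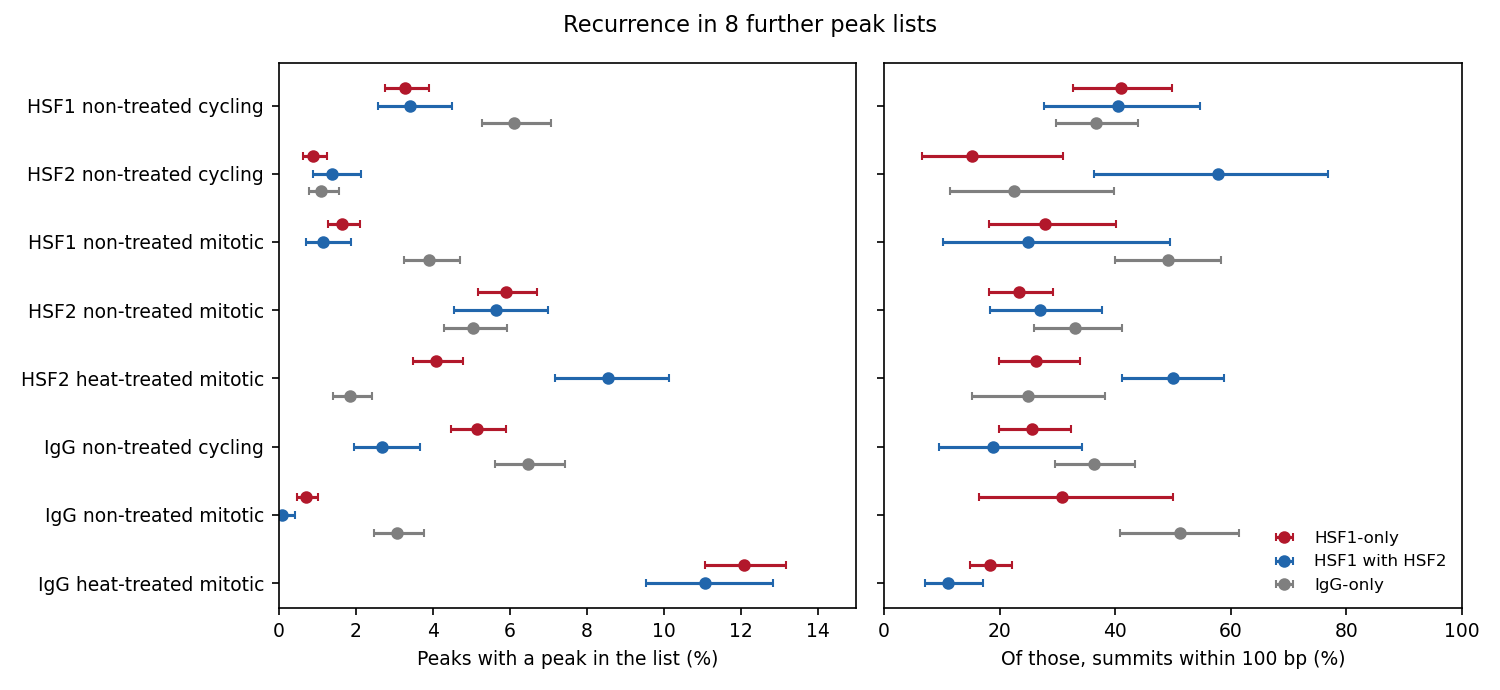
Left, percent of HSF1-only, shared HSF1 and IgG-only peaks that touch a peak in each of 8 remaining lists. Right, of those, the percent with summits within 100 bp. Bars are 95% Wilson intervals. IgG-only has no value for heated mitotic IgG, which its definition used, and on the right, sets of fewer than 5 peaks are not drawn. HSF1-only peaks recur most often in heated mitotic IgG (12.1%), and shared peaks have summits within 100 bp in heated mitotic HSF2 at 50.0%, against 26.3% for HSF1-only peaks.

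Recurrence went with tags in the members. Among members at the minimum of 13 tags, 7.72% had a peak in an HSF list and 13.4% in an IgG list. With 20 to 29 tags these were 18.7% and 19.3%, with 30 to 49 tags 33.6% and 32.9%, and with 50 tags or more 56.9% and 63.1% of 65 members. In the whole list these 4 bands gave 9.18% and 15.1%, then 24.7% and 23.4%, then 41.8% and 34.9%, then 73.9% and 67.9%. In the shared peaks the bands from 20 tags up gave 15.7% and 13.9%, then 18.4% and 10.7%, then 29.7% and 22.5% of 138. From 30 tags up, members thus recurred in IgG lists about as often as in HSF lists, and in both more often than shared peaks with as many tags.

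With fold the order was the reverse. A fold below 2 was found in 207 members, against 9.45% of the list. Of these 207, with medians of 25 tags and 880 bp, 33.8% touched an HSF peak, 40.6% an IgG peak and 49.8% neither, against 71.1%, 71.1% and 20.2% of the whole list in that range. Of the 1679 with a fold from 2 up to 3, 12.7% touched an HSF peak and 16.6% an IgG peak, against 24.4% and 27.2% of the list. Of the 1593 from 3 up to 5, these were 9.23% and 12.1%, against 17.2% and 18.2%, and of the 221 from 5 up to 8 they were 8.60% and 12.2%, against 15.1% and 16.3%. Members with a fold from 3 up to 8 were thus seen again less often than those with a fold below 2.

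The 240 members with a fold of at least 5 had medians of 23 tags (range 14 to 57) and 790 bp. In heated mitotic HSF2, 12 of the 240 (5.00%) had a peak, at a median summit distance of 117.5 bp with 6 within 100 bp, and of the 695 shared peaks of that fold 63 (9.06%) had one, at 75 bp with 38 within 100 bp. In heated mitotic IgG, 28 of the 240 members (11.7%) had a peak, and 76 of the 695 shared peaks (10.9%).

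In non-treated cycling HSF1, 6 of the 240 had a peak, and all 6 summits lay within 100 bp, at a median of 24.5 bp. For the members with a fold below 3 it was 84 (4.45%), at a median of 228.5 bp. These 3 of the 6, singled out after their values were seen, show the range of levels. At chr6:27655129-27656493 the heated peak had 45 tags, 2.69 CPM (1.96 to 3.60), and the non-treated peak 15 tags, 1.04 CPM (0.581 to 1.71). These Poisson intervals do not overlap. At chr4:129473858-129474591 heated cells had 31 tags, 1.85 CPM (1.26 to 2.63), and non-treated cells 16 tags, 1.11 CPM (0.633 to 1.80). At chr22:37724584-37725263 heated cells had 19 tags, 1.14 CPM (0.684 to 1.77), and non-treated cells 25 tags, 1.73 CPM (1.12 to 2.55). On chromosomes 4 and 22 the intervals overlap, and on chromosome 22 the non-treated CPM was the higher. Each CPM counts the tags of a peak within the bounds called in its own library. The 6 non-treated partners had a median width of 593.5 bp, against 790 bp in the 240 members. The values are thus not levels over 1 common stretch, and an effect of heat was not tested.

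A few members were found in most remaining lists. The region chr3:195371019-195371809 touched a peak in all 5 HSF lists and 2 IgG lists. It held 27 tags, 1.61 CPM, and a fold of 1.84 in heated cycling HSF1, 6.68 CPM in heated mitotic HSF2 and 3.84 CPM in heated mitotic IgG. The region chr22:20411518-20413099 touched all 5 HSF lists and 1 IgG list, with 2.69 CPM and a fold of 1.66 in heated cycling HSF1, 11.6 CPM in non-treated cycling HSF2 and 4.34 CPM in heated mitotic IgG. At both, the heated cycling HSF1 peak had a lower CPM than the IgG peak named, each counted within its own called bounds. The other regions in most HSF lists were chr17:122833-123445 (4 HSF and 3 IgG lists, fold 3.06), chr9:140782893-140783669 (4 and 1, fold 2.89) and chr22:21841912-21843693 (4 and 2, fold 1.89).

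In all 3 remaining IgG lists, a peak was found at chr17:122833-123445, chr9:131071889-131073675 and chr4:190979121-190981211. The last held 74 tags, 4.42 CPM, at a fold of 1.47 in heated cycling HSF1, against 11.8 CPM in heated mitotic IgG and 4.13 CPM in non-treated cycling IgG. In 2 IgG lists and of the highest fold were chr3:46741886-46742637 (fold 4.32) and chr1:3499866-3500772 (fold 4.27).

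The rule's edge was thinly filled. Within 1000 bp of a peak in any of the 3 lists of the rule lay 206 members (5.54%), within 100 bp 32, and within 10 kb 955 (25.7%). The heated HSF2 list had a peak within 1000 bp of 75 members (2.02%). Of the 240 members with a fold of at least 5, 7 lay within 1000 bp of an HSF2 peak, 3 within that distance of a mitotic HSF1 peak and 0 of an IgG peak. Just inside the rule were chr6:34529241-34529997, 15 bp from an HSF2 peak, with 18 tags and a fold of 3.02, chr22:21828591-21829695, 15 bp from an IgG peak, with 32 tags and a fold of 1.68, and chr22:24646193-24647169, 23 bp from an IgG peak, with 25 tags and a fold of 3.02. Just outside it were chrX:9381533-9382141, which overlaps a mitotic HSF1 peak by 17 bp, with 16 tags and a fold of 2.38, chr7:66745359-66745918, which overlaps an IgG peak by 18 bp, with 13 tags and a fold of 2.51, and chr4:9242377-9243206, which overlaps a mitotic HSF1 peak by 19 bp, with 22 tags and a fold of 2.44.

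The members were spread over all 24 chromosomes. Chromosome 1 held 536 (14.4%), chromosome 7 392 (10.5%) and chromosome 6 310 (8.34%). Per Mb spanned, chromosome 19 had the most with 2.76, then chromosome 22 with 2.56, chromosome 16 with 2.55 and chromosome 7 with 2.46, and chromosome 13 had the fewest with 0.167. The share of a chromosome's HSF1 peaks that were members ran from 27.2% on chromosome 22 (90 of 331) to 71.7% on chromosome 18. Across the chromosomes, members per Mb went both with shared HSF1 peaks per Mb and with peaks of the heated cycling IgG list per Mb. Against shared peaks Pearson's r was 0.871 and Spearman's rho 0.923 over 24 chromosomes, and 0.847 and 0.907 over 22 without chromosomes 22 and Y. Against IgG peaks r was 0.649 and rho 0.836, and without those chromosomes 0.945 and 0.893. Leaving out chromosomes 22 and Y was not planned. Chromosome 22 had 9.95 IgG peaks per Mb, and chromosome 7, the next highest, 3.15. Which of the 2 sets had the higher r depends on this omission. These correlations are descriptions, since all sets share the input and the same genome.

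The chromosome spread changed with fold. Chromosomes 1, 6 and 7, chosen here because they held the most members, had 33.3% of all members, 43.9% of those with a fold below 3, 24.1% of those from 3 up to 5 and 10.8% of those of 5 or more (26 of 240, 7.50 to 15.4%). Of the peaks with a fold below 3 in the other sets, these chromosomes held 43.9% of the shared peaks, 42.6% of the HSF2-only peaks, 39.5% of the IgG-only peaks and 46.0% of the non-treated HSF1-only peaks. Of the shared peaks with a fold of at least 5, 21.4% lay on these chromosomes. Of the HSF2-only peaks of that fold 8.96% did (6 of 67), and of the non-treated HSF1-only peaks 31.0% (9 of 29). Chromosomes 17, 19 and 20, also chosen after the values were seen, had 20.0% of the members with a fold of at least 5 and 6.42% of those with a fold below 3. Among the shared peaks these shares were 19% and 10.8%, and among IgG-only peaks with a fold below 3 the share was 6.76%. Among the HSF2-only peaks they were 19.4% and 7.65%, and among the non-treated HSF1-only peaks 6.90% and 6.19%. The spread over chromosomes thus went with the fold in the members as in the shared and the HSF2-only peaks. Members of high fold had a smaller share on chromosomes 1, 6 and 7 than shared peaks of high fold. The HSF2-only peaks had this too, so it was not particular to the members.

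**Figure D4:**
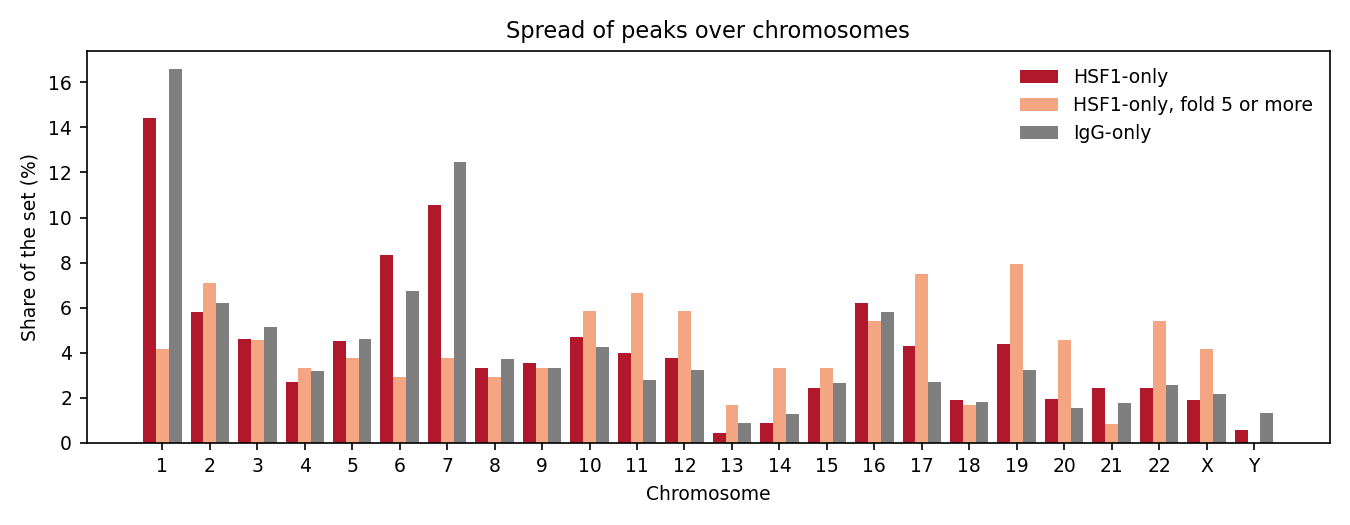
Share of each set (percent) on each chromosome for 3719 HSF1-only peaks, the 240 of them with a fold of at least 5, and 2812 IgG-only peaks. Bars start at 0. All HSF1-only and IgG-only peaks are highest on chromosomes 1 and 7, whereas the 240 are highest on chromosome 19 (7.92%) and have 4.17% on chromosome 1.

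Members were seldom next to each other. The median distance from a member to the nearest other was 99.7 kb, 487 (13.1%) had another within 10 kb and 66 within 1 kb. Of the 1408 windows of 1 Mb that held a member, 632 held 1 and 37 held 10 or more, with 492 members in those 37. The fullest was chr6:27000001-28000000 with 26 members of 13 to 45 tags and a highest fold of 5.00, of which 16 had no peak in any remaining list. That window held 32 peaks of heated HSF1, 8 of heated HSF2 and 4 of heated IgG in cycling cells, 14 of non-treated cycling HSF1, 19 of non-treated mitotic HSF2 and 28 of heated mitotic IgG. The next window on the chromosome held 20 members.

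These lists alone do not assign a member to binding or to background. At one end, 240 members (6.45%, against 19.4% of the list) reached a fold of 5, which 2 of 2812 IgG-only peaks reached. Of the 240, 196 (81.7%) had no peak in any remaining list, against 78.0% of all members. In the whole list this share was 75.1% at a fold from 5 up to 8 and 53.5% at 8 or more. At the other end, 207 members had a fold below 2, of which 40.6% touched an IgG peak of another condition, 33.8% an HSF peak and 49.8% neither, where 71.1% of the whole list in that range touched an IgG peak. Between these lay 3272 members (88.0%) with a fold from 2 up to 5, a range that also held 665 of the shared peaks (48.2%) and 2249 of the IgG-only peaks (80.0%). Whether the members of either end would be found again in a second heated HSF1 library was not tested.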

How the data were processed

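ChIP-seq peak lists of 12 K562 libraries, 1 per group, were used as deposited, with hg19 positions counted from 1. Alignment used Bowtie against hg19, and peak calling used MACS 1.4, per the submitters' processing notes. The version was 1.4.1, the p cutoff 1e-05 and the fragment size 200 bp, per the file headers, where alignment names carry bwa in 5 lists, among them the HSF1, HSF2 and IgG lists of heated cycling cells. The tags column holds deposited counts of tags per peak. A CPM set beside that of another list is therefore counted over another called interval. The deposited score is minus 10 times log10 of the p-value. The deposited fold is a ratio to the input at the summit, and the deposited FDR is a percent. Kept tags were read from the headers. Chromosome accession names in the non-treated cycling IgG list were replaced by chromosome names.

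The members and all comparison sets were chosen with earlier results of these data known. Overlap meant 1 shared bp, counted with Python 3.11.15, numpy 2.4.6 and pandas 2.3.3 and compared with bedtools 2.31.1. The steps were tested on simulated data. Shares have 95% Wilson intervals and CPM exact Poisson intervals (scipy 1.17.1), and figures used matplotlib 3.10.9. To scale a fold to depth, it was multiplied by the kept tags of heated cycling HSF1 and divided by those of the list's own library. This takes the fold as proportional to depth, which was not tested. Regions named are the 10 members of highest fold, the 5 with most tags, the 5 in most remaining HSF lists and the 5 in most remaining IgG lists (ties by fold), 3 on each side of the rule's edge and the 1 Mb window with most members. The text marks any other region as picked once its values were seen. The alternatives changed the overlap, the peaks admitted, the lists of the rule or the depth. With 1 library per group no test was run. Genome sequence and gene annotation of hg19 were not used here.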

Additional observations from a re-analysis of the deposited data

How the results depend on the processing

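No paired analysis was possible because the labels give no replicate numbers and each group has 1 library. For the same reason no library could be left out of a group. Over all alternatives, 56 values stayed within the counting interval (for counts, within 1.5 times) and 45 moved. The number of members was 4012 with 50% reciprocal overlap, 4137 with summits within 250 bp, 3513 when peaks at most 1000 bp apart also counted, 4346 with HSF2 as the only list of the rule, 3959 without the mitotic HSF1 list and 3925 without the IgG list. The number with a fold of at least 5 stayed between 232 and 267 in these 6.

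The shares of members with a peak in an HSF list, in an IgG list and in none (12.1%, 15.8% and 78.0% as reported) were 10.5%, 10.2% and 83.2% with 50% reciprocal overlap, and 9.81%, 9.55% and 83.4% with summits within 250 bp, where the median fold was 2.90 and 2.87. They were 16.8%, 23.3% and 68.6% when peaks at most 1000 bp apart counted. With HSF2 as the only list of the rule they were 20.8%, 23.7% and 69.3%, at a median of 0.956 CPM and a fold of 2.86. Without the mitotic HSF1 list they were 15.3%, 18.8% and 74.7%, and without the IgG list 14.6%, 17.9% and 75.2%. With summits or 50% overlap the share in HSF lists was no longer below that in IgG lists, so their order depends on this choice.

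With a score of at least 100, 761 members remained, 13.7% with an HSF peak and 76.1% with none, at a median of 1.20 CPM and a fold of 4.27. With a fold of at least 5, 240 remained, with 8.75% in HSF lists, 12.9% in IgG lists and 81.7% in none, at a median of 1.37 CPM and a fold of 5.43. Chosen after seeing the data, a minimum at the lowest CPM of the mitotic HSF1 list left 677 members, with 27.0%, 28.4% and 60.6%, at a median of 1.55 CPM and a fold of 3.35. Also chosen after seeing the data was the share with a deposited fold of at least 5 among peaks with a score of at least 100. It was 31.0% of the HSF1-only, 0.529% of the IgG-only, 37.5% of the HSF2-only and 5.88% of the non-treated HSF1-only peaks. The order of HSF1-only and HSF2-only peaks turned there on the deposited fold, but not on the scaled fold. Scaled to depth, the share at any score was 1.04% of the HSF2-only and 1.61% of the non-treated HSF1-only peaks. Leaving out peaks of 2000 bp or more moved no value. Total tags equal kept tags in heated cycling HSF1, so scaling by total tags could not move the median CPM and shows nothing. Among the 3 lists of the rule, depth limits the mitotic HSF1 list most.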
